A study of Mus musculus with 12 samples.

Results

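The GATA transcription factors form a family of 6 genes in mouse, Gata1 to Gata6, and all 6 were found by symbol among the 17853 genes measured on Affymetrix mouse exon arrays. They were covered by 68 probe sets, with 8 for Gata1, 11 for Gata2, 13 for Gata3, 11 for Gata4, 9 for Gata5 and 16 for Gata6. Each of these probe sets was assigned to 1 gene symbol.

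The 12 arrays held RNA from 4 populations of back skin epidermal cells, with 3 samples labelled as biological replicates in each. All cells came from females on a C57BL6/CBA background whose hair follicles were resting (telogen), and all mice carried the Gata6-mTomato reporter, a red fluorescent marker of Gata6 activity. Gata6+Itga6+ cells carried the red reporter and surface integrin alpha 6 (ITGA6), which holds basal keratinocytes to the basement membrane. Gata6+Itga6- cells carried the reporter and lacked ITGA6. The other populations lacked the reporter and carried ITGA6, and were divided by CD34, a surface marker of hair follicle bulge stem cells: CD34+ cells carried it and remaining basal cells did not. The mice were matched for age and sex. Whether cells of several mice were pooled for a sample was not stated, so p-values describe the spread between these samples. Each value is a mean over a sorted population, in which fewer expressing cells and less RNA per cell cannot be told apart. The study asked how Gata6-expressing epidermal cells differ from the other basal populations. Because the reporter was a basis of the sort, Gata6 values serve as a check of the labels.

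GATA factors bind DNA through zinc fingers that recognise a short sequence built around the letters GATA. GATA1, GATA2 and GATA3 are best known from blood cell formation, and GATA4, GATA5 and GATA6 from heart and endoderm. GATA3 also acts in skin, where it is required for the inner root sheath of the hair follicle and for the epidermal barrier, and GATA6 marks cells of the upper hair follicle and sebaceous duct. FOG cofactors (Zfpm1, Zfpm2) bind the zinc fingers, and LIM-domain proteins (Lmo genes) with LDB1 join GATA factors to E-proteins such as TCF12.

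The GATA motif was looked for in the promoters of the family, since members of this family can act on each other's genes. RefSeq promoter windows (GRCm38.p6, 250 bases before to 50 after a transcript start) matched 4 of the members, with 5 windows: 1 each for Gata1, Gata3 and Gata5 and 2 for Gata2. The motif was searched on both strands with the letters AGATAA or AGATAG, and with TGATAA or TGATAG. It occurred in 1 of the 5 windows, that of Gata3, and in 29.8% of all 32851 windows of 300 bases. The matching stretches of Gata3, and of genes whose levels followed Gata3 or Gata6 most closely over the arrays (below), are printed 5′ to 3′ on the gene's strand, with the motif, or its reverse complement, in capitals. A match is only a match of letters.
Gata3, chr2:9878551-9878580, minus strand, 36 bases after the start: ctgcctggcgccgtctTGATAGtttcagaa
Slc6a4, chr11:76998520-76998549, plus strand, 65 bases before the start: ctttggcggcggCTATCTagagatcagacc
Dnmt1, chr9:20960040-20960069, minus strand, 169 bases before the start: ccagtttccatcCTATCTctgtttgctcct
Nebl, chr2:17670288-17670317, minus strand, 140 bases before the start: gcatcttgctctTTATCTtttacatgggat
Nebl, chr2:17526147-17526176, minus strand, 34 bases before the start: ccttcctggcttAGATAAacactgtttgtt
Of the 6 genes most like Gata3, 5 had a window and 2 of these a match. Of the 6 most like Gata6, 3 had a window and 1 a match. For comparison, 33.0% of all genes with a window had a match in at least 1.

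Levels below are log2(intensity + 1), as the median of a gene's probe sets. A level under 2.46 is called silent here: it is the 95th percentile of the population means of 1144 olfactory and vomeronasal receptor genes, taken as mostly unused in epidermis. No gene was filtered out. The sort markers were read first: Cd34 was at 7.95 ± 0.033 (SD, n = 3) in CD34+ cells and between 1.66 and 1.96 in the other 3 populations, and Itga6 was lowest in Gata6+Itga6- cells, at 6.02 ± 0.31. Their Itga6 was called lower than in Gata6+Itga6+ (adjusted p = 0.0268) and remaining basal cells (adjusted p = 0.00367), but not than in CD34+ cells, where the difference was -0.74 (adjusted p = 0.131). All 8 basal keratinocyte genes of a list that includes Krt5 and Krt14 were over the silent level in every population. Array medians of the deposited intensities ran from 3.97 to 4.57, and the precision is limited by having 3 arrays a population.

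Of the 6 family members, Gata3 and Gata6 were over the silent level and differed among the populations, while the population means of Gata1, Gata2, Gata4 and Gata5 all lay under it. In limma's moderated F test over the 4 populations, adjusted over all genes, Gata6 had an adjusted p of 2.107e-05 and Gata3 one of 7.498e-04, and 9.38% of all genes were called. The adjusted p was 0.495 for Gata2, 0.523 for Gata5, 0.948 for Gata4 and 0.952 for Gata1. The sort itself bears on differences in Gata6 between reporter-positive and reporter-negative cells. The F test of Gata6, and its calls in such pairs in the counts below, thus only check the labels.

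**Figure D1:**
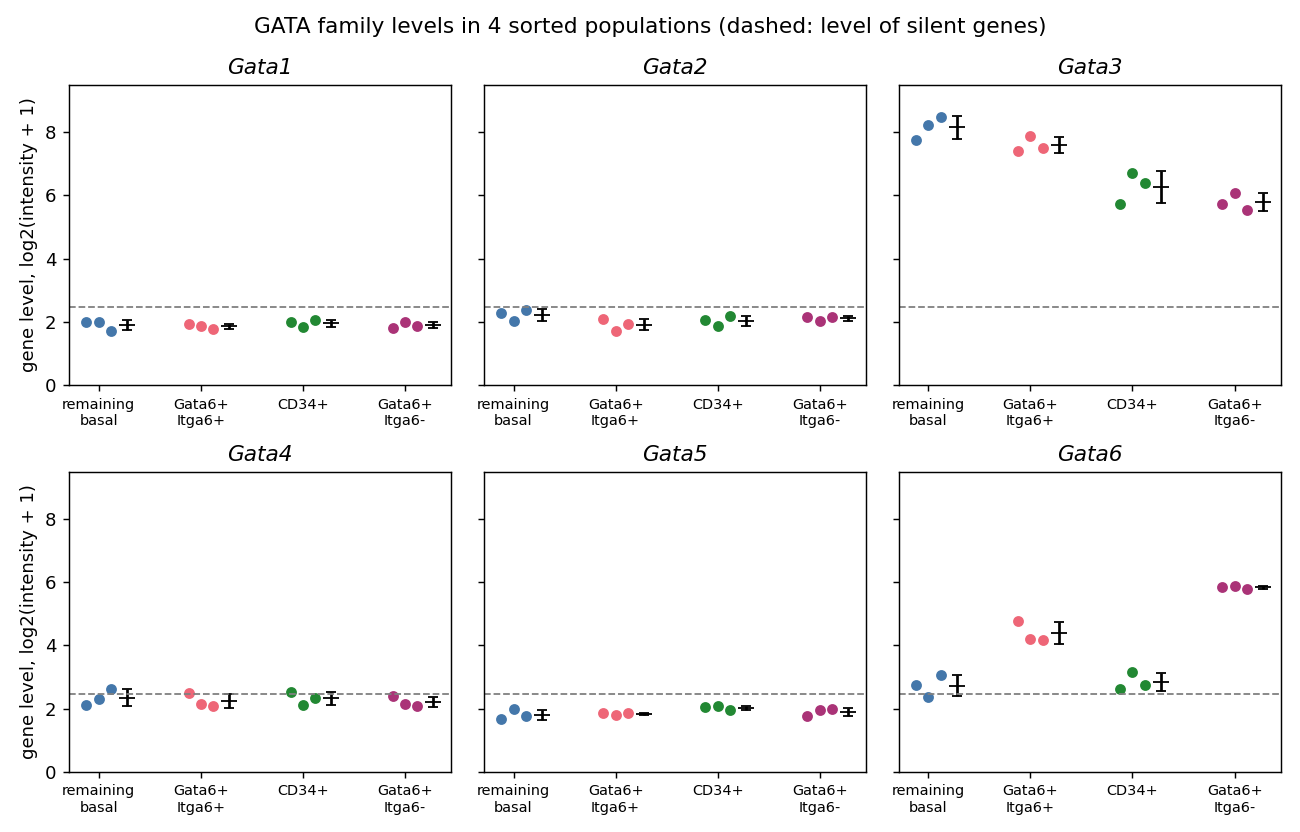
Levels of the 6 family members on the 12 arrays, as log2(intensity + 1), with 1 panel per gene. Points are arrays in the order of replicate 1 to 3, the bar beside them is the mean with its SD (n = 3), and the dashed line is the silent level of 2.46. Gata3 lies far above the line in every population, Gata6 lies well above it in both reporter-positive populations, and the other 4 members stay around or under it.

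Gata6 came first as the check of the sort. Its levels were 5.84, 5.89 and 5.80 in Gata6+Itga6- replicates 1 to 3 and 4.79, 4.21 and 4.18 in the replicates of Gata6+Itga6+ cells. In CD34+ replicates they were 2.61, 3.17 and 2.75, and in remaining basal replicates 2.74, 2.38 and 3.07. Every reporter-positive array was above every reporter-negative array, as the labels say. The reporter-negative populations were close to the silent level, with 1 of their 6 arrays, remaining basal replicate 2, under it.

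Between both reporter-positive populations, Gata6 was 2.74-fold higher where ITGA6 was absent (log2 difference 1.45 ± 0.22 SE, limma adjusted p = 0.00652), and the arrays did not overlap. The brightness of the reporter in each gate was not given. With only the brightest probe set of each gene, this difference was 0.80 with an adjusted p of 0.354. Against the reporter-negative cells, on which the sort itself bears, Gata6 was 2.93-fold (CD34+) and 3.17-fold (remaining basal) higher in Gata6+Itga6+ cells, and 8.01-fold and 8.67-fold higher in Gata6+Itga6- cells. All 4 passed the test, with adjusted p of 0.00426 or less, but the 3.17-fold difference had an adjusted p of 0.0619 when only its populations were fitted. With a pseudocount of 16 the log2 differences of Gata6+Itga6+ cells were 0.71 and 0.74, and those of Gata6+Itga6- cells 1.71 and 1.75. With the brightest probe sets those of Gata6+Itga6+ cells were 2.66 and 2.48. The last of the 6 pairs compares CD34+ with remaining basal cells, neither selected for the reporter. There the difference was 0.11, with a 95% interval of -0.37 to 0.60 and an adjusted p of 0.896. Its sign turned under 5 of the 22 alternative settings.

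The gene median understates how far single Gata6 probe sets moved. The mean of the reporter-positive populations was over that of the other populations by 2.38 to 6.32 log2 units at 10 of the 16 probe sets and by 0.013 to 0.69 at the other 6, with nothing between. Gata6+Itga6- cells had the highest mean at 14 of 16 probe sets. Probe set 5148899 had the largest difference, with values of 9.54, 9.66 and 9.48 in Gata6+Itga6- replicates and of 8.04, 7.41 and 8.40 in those of Gata6+Itga6+ cells. In CD34+ replicates it was at 1.42, 3.15 and 1.91. Remaining basal replicate 3 stood apart from its group here, at 5.73 against 1.46 and 0.95. It did so again at probe set 5282182, with 5.33 against 1.60 and 1.66, but not at 5417610, where the 3 replicates were at 2.55, 2.41 and 2.76. At 5417610, CD34+ replicates 2 and 3 were at 4.66 and 4.30 and replicate 1 at 2.41. Without remaining basal replicate 3, Gata6+Itga6+ cells still had more Gata6 than remaining basal cells, by 1.83 with an adjusted p of 0.0046. Probe set 5460672 had the smallest difference and lay under the silent level in all populations, between 1.40 and 2.08 over the 12 arrays.

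**Figure D2:**
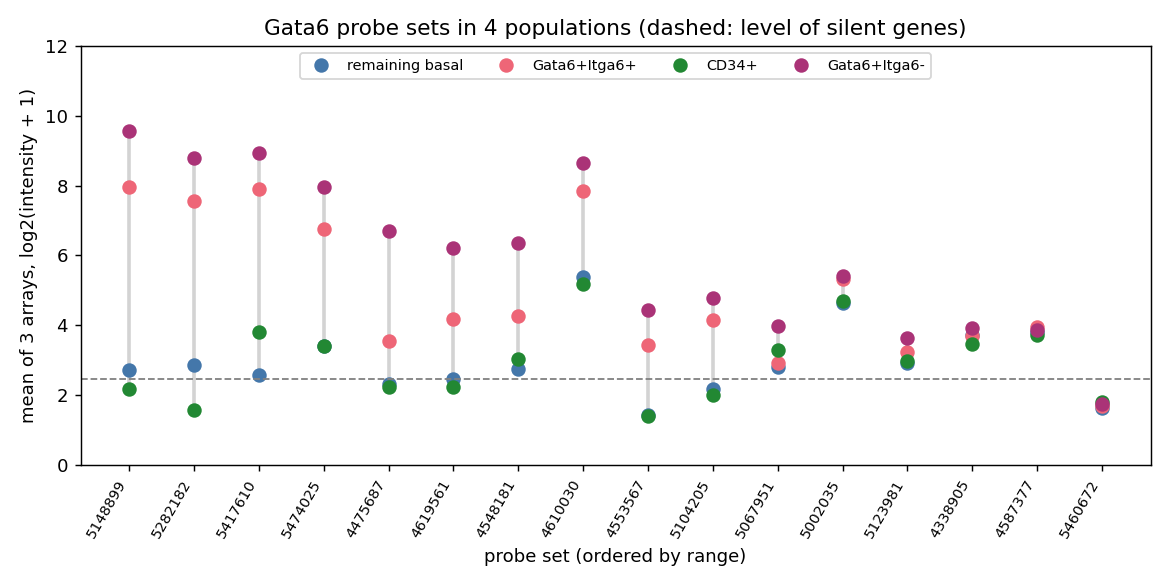
The 16 Gata6 probe sets, ordered by the range of their 4 population means. Each point is the mean of 3 arrays in log2(intensity + 1), and the dashed line is the silent level. At 10 probe sets the mean of the reporter-positive populations lies above that of the others by 2.38 or more. At 4475687 Gata6+Itga6+ cells, at 3.54, lie nearer to remaining basal cells, at 2.32, than to Gata6+Itga6- cells, at 6.68. At the other 6 the mean of the reporter-positive populations is above that of the others by 0.69 or less. At 5067951, 1 of these, Gata6+Itga6+ cells, at 2.93, lie under CD34+ cells, at 3.28.

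Gata3 was measured on its own account, since neither the reporter nor the surface markers of the sort select for it. Its high levels were in remaining basal and Gata6+Itga6+ cells, and its lower ones in CD34+ and Gata6+Itga6- cells. Its levels in replicates 1 to 3 were 7.76, 8.24 and 8.48 in remaining basal cells, followed by 7.39, 7.88 and 7.51 in Gata6+Itga6+ cells. In CD34+ cells they were 5.72, 6.70 and 6.41, and in Gata6+Itga6- cells 5.72, 6.09 and 5.54. The higher 2 populations had no array in common range with the lower 2. Within each of these pairs the gene levels of the arrays overlapped. All 12 arrays were over the silent level.

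In order of level, the Gata3 means were 8.16 ± 0.37 (SD, n = 3) in remaining basal cells, then 7.59 ± 0.26 in Gata6+Itga6+ cells, 6.27 ± 0.50 in CD34+ and 5.79 ± 0.28 in Gata6+Itga6- cells. Of the neighbours in this order, the call was made only for Gata6+Itga6+ against CD34+ cells. The difference of Gata6+Itga6+ from remaining basal cells was -0.57 (95% interval -1.18 to 0.044, adjusted p = 0.472), an interval that holds both a clear decrease and no change. That of Gata6+Itga6- from CD34+ cells was -0.49 (-1.10 to 0.12, adjusted p = 0.419). The 6 comparisons share arrays and are not independent of each other.

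Within the Gata6 reporter-positive cells, Gata3 went the opposite way to Gata6. Cells without ITGA6 had 3.50-fold less Gata3 than those with it (log2 difference -1.81 ± 0.27 SE, limma adjusted p = 0.00694) and more Gata6. Of the 6 members 2 were called, 1 in each direction. Of all genes 1.17% were called higher and 2.01% lower in Gata6+Itga6- cells. With only the brightest probe set of each gene neither was called, Gata3 being at -1.30 with an adjusted p of 0.102.

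Against remaining basal cells, Gata6+Itga6- cells had 5.19-fold less Gata3 (-2.37 ± 0.27 SE, adjusted p = 5.125e-04). In this pair 2 of 6 members were called, Gata3 among the 2.15% of all genes called lower and Gata6 among the 2.96% called higher. CD34+ cells had 3.70-fold less Gata3 than remaining basal cells (-1.89 ± 0.27 SE, adjusted p = 0.00246), and Gata3 was the 1 member called, where 1.67% of all genes were called lower. Both differences were called under all 22 alternative settings, among them each array left out in turn.

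Gata6+Itga6+ cells had 2.50-fold more Gata3 than CD34+ cells (1.32 ± 0.27 SE, adjusted p = 0.0214), and 2 of 6 members, with Gata6, were called higher, as were 2.40% of all genes. This call is less firm than the others. The adjusted p was 0.0593 without CD34+ replicate 1, 0.0842 without Gata6+Itga6+ replicate 2 and 0.0601 without Gata6+Itga6+ replicate 3. It was 0.0523 with a letter in the array names, of unstated meaning and shared by 1 array of each population, as a block and 0.0733 when only these 2 populations were fitted. With the brightest probe sets it was 0.191. The direction held in all of these, and the 3 values between arrays of the same letter were 0.70, 2.17 and 1.10.

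In the other pairs, 1 of 6 members was called, Gata6 in each: higher in Gata6+Itga6+ cells than in remaining basal cells, as were 1.07% of all genes, and higher in Gata6+Itga6- than in CD34+ cells, as were 3.22%. After quantile normalization, Gata3 was also called in the former pair, at -0.998 with an adjusted p of 0.0492.

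**Figure D3:**
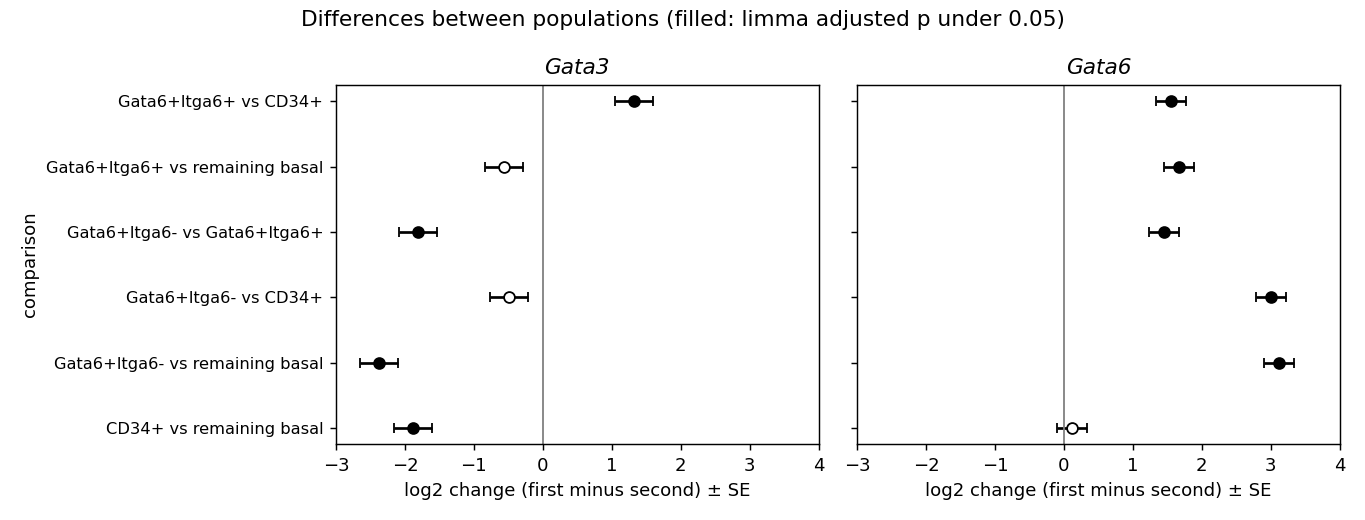
Log2 differences of Gata3 and Gata6 in the 6 pairs of populations, the first named minus the second, with bars of 1 SE from limma. Filled points passed an adjusted p of 0.05. Both genes were called, on opposite sides of 0, for Gata6+Itga6- cells against Gata6+Itga6+ cells and against remaining basal cells, and in 3 other pairs the points lie on opposite sides with 1 of the genes not called. Between CD34+ and remaining basal cells the sign for Gata6 turned under some of the 22 alternatives, and 17 kept it.

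The 13 Gata3 probe sets were also read one by one. All 13 were over the silent level in every population. Remaining basal cells had the highest mean at 13 of 13, and the lowest was in Gata6+Itga6- cells at 11 and in CD34+ cells at 2. In a fit over all 221205 probe sets, remaining basal cells were called higher than Gata6+Itga6- cells at 10 of the 13 (1.01% of all probe sets) and higher than CD34+ cells at 9 (0.731%). At all 13 the arrays did not overlap in either comparison, as held for 16.6% and 15.8% of all probe sets. These 9 were all the called probe sets of the family in the latter pair. Counted over the whole family in either direction, they became 3 when remaining basal replicate 3 was left out. They became 4 without remaining basal replicate 2 or CD34+ replicate 2, and 5 without remaining basal replicate 1. Between Gata6+Itga6- and Gata6+Itga6+ cells, 12 of the 13 had the lower mean in the former and 2 passed the test, as did 0.668% of all probe sets in that direction. Over the whole family 4 probe sets were called in this pair, and 1 to 4 when single arrays were left out, with 1 without Gata6+Itga6+ replicate 3. Gata6+Itga6+ cells were above CD34+ cells at 13 of 13, by 0.44 to 1.58. None of these passed limma's adjusted p, where 0.871% of all probe sets did, and 9 had an unadjusted p under 0.05. Against remaining basal cells, Gata6+Itga6+ cells had the lower mean at 13 of 13, with a median difference of -0.71, and the arrays did not overlap at 10, as held for 13.8% of all probe sets. None of these passed limma's adjusted p, and 5 had an unadjusted p under 0.05.

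Probe set 4677923 showed the largest difference between the higher and the lower populations. Its replicates were at 5.996, 6.84 and 6.41 in remaining basal cells and at 5.32, 5.46 and 5.95 in those with the reporter and ITGA6. Replicates were at 4.30, 4.76 and 3.54 in CD34+ and 2.31, 3.24 and 2.78 in Gata6+Itga6- cells, so that this probe set came near the silent level in the last population. The smallest difference was that of probe set 4498811, with 6.13, 5.94 and 6.47 for remaining basal cells and 5.38, 5.75 and 5.32 for Gata6+Itga6+ cells. There Gata6+Itga6- cells, at 5.72, 5.30 and 5.51, were level with Gata6+Itga6+ cells (difference 0.024), and CD34+ cells had 5.41, 4.90 and 4.82. It was the 1 probe set whose mean was not below that of Gata6+Itga6+ cells in the cells without ITGA6.

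**Figure D4:**
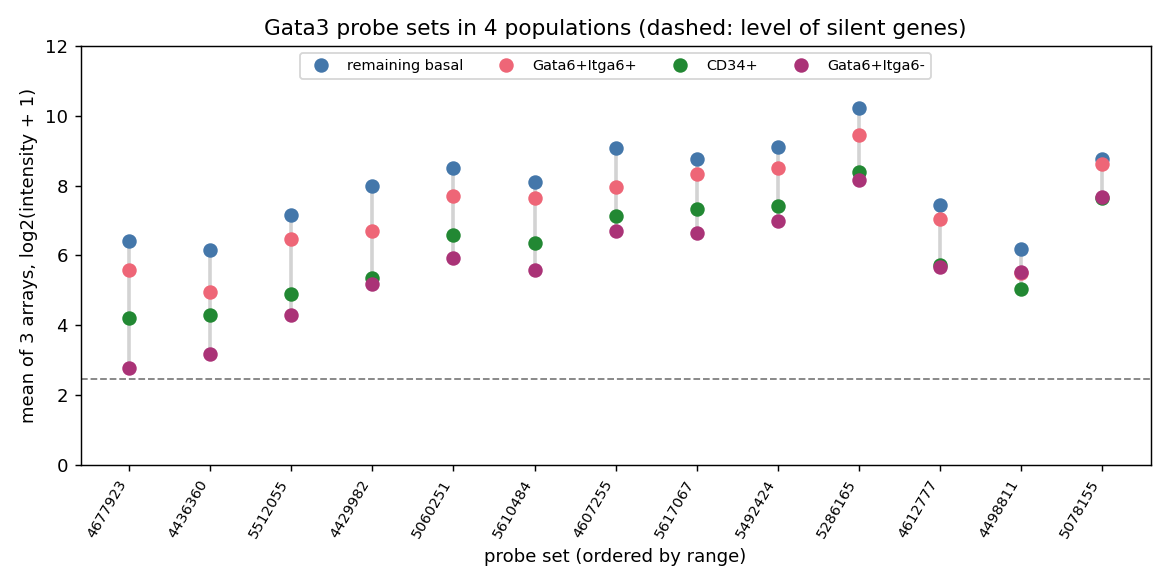
The 13 Gata3 probe sets, ordered by the range of their 4 population means, each point being the mean of 3 arrays in log2(intensity + 1). Remaining basal cells are the highest at every probe set, and Gata6+Itga6- cells are the lowest at 11 of 13.

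Markers of other cell types were read beside Gata3, which some lymphocytes express strongly. Of 12 measured T cell and innate lymphoid genes, 1 was over the silent level in Gata6+Itga6+, 3 in Gata6+Itga6-, 2 in CD34+ and 2 in remaining basal cells. Summed intensities of the 12 ran from 39.7 to 48.2, 46.3 to 62.8, 35.6 to 43.5 and 61.8 to 81.1 over the arrays of these populations. The defining genes Cd3d, at 1.55 to 1.61, and Ptprc, at 1.47 to 1.81, were under the silent level in all populations. Cd3e was at 2.73 ± 0.93 and Cd3g at 2.48 ± 0.69 in Gata6+Itga6- cells, and both were under the silent level in the others. Thy1, a surface antigen of T cells and some other cells, was at 3.88 ± 1.06 in remaining basal and 2.54 ± 0.75 in CD34+ cells and under the silent level in both reporter-positive populations. Rora, which keratinocytes also express, was the 1 called gene of the list in any pair, lower in CD34+ than in remaining basal cells by -1.39 ± 0.35 SE (adjusted p = 0.0492), as were 1.67% of all genes. The mean level of the 8 basal keratinocyte genes ran from 7.46 to 7.92 over remaining basal arrays, 7.45 to 7.53 over Gata6+Itga6+ and 7.45 to 7.89 over CD34+ arrays, and from 5.97 to 6.42 over Gata6+Itga6- arrays. Of these genes, 6 were called lower within the reporter-positive cells where ITGA6 was absent, as were Gata3 and 2.01% of all genes. Itga6 is among the 6, and the sort itself bears on it. Between CD34+ and remaining basal cells, where Gata3 was called, limma called 0 of the 8 (2 had an unadjusted p under 0.05). Their part in the Gata3 differences was not tested.

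**Figure D5:**
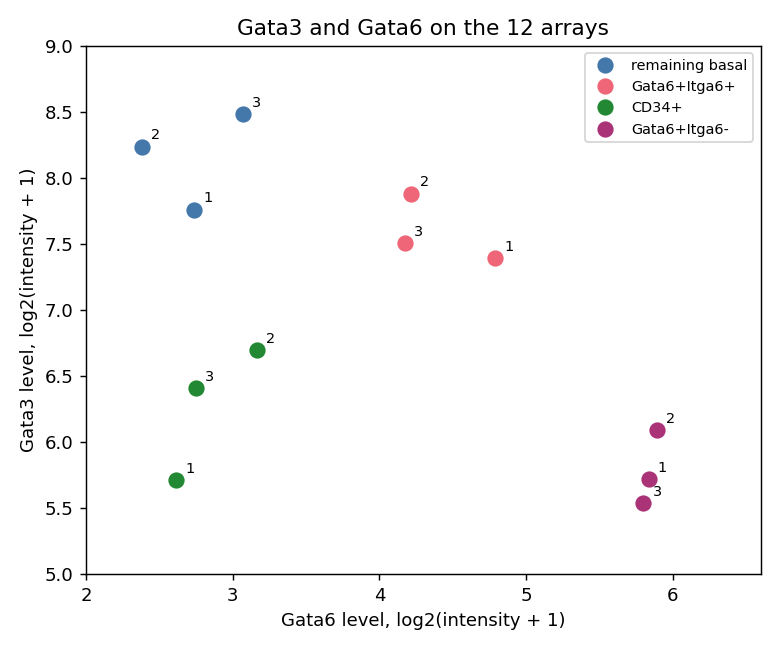
Gata3 against Gata6 on the 12 arrays, both in log2(intensity + 1), with replicate numbers beside the points. Gata6+Itga6- arrays lie at the lower right and remaining basal arrays at the upper left. CD34+ arrays share low Gata6 with remaining basal cells and low Gata3 with Gata6+Itga6- cells.

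The blood-forming members Gata1 and Gata2 gave little signal. Gata1, the master regulator of red cell and megakaryocyte genes, had population means of 1.86 to 1.96. None of its 8 probe sets was over the silent level in all populations and 6 were under it in every one. Gata2, needed in blood stem cells and mast cells, had means of 1.91 to 2.22. Its largest difference was -0.31 ± 0.13 SE between Gata6+Itga6+ and remaining basal cells (95% interval -0.61 to -0.015, adjusted p = 0.400). At 3 of the 11 Gata2 probe sets, however, all population means were over the silent level. Probe set 5260024, the brightest of these in CD34+ cells, was at 5.91, 4.27 and 5.17 in CD34+ and 3.62, 4.78 and 4.25 in remaining basal replicates. It was at 4.81, 4.23 and 5.02 in Gata6+Itga6+ replicates and at 4.57, 3.62 and 4.39 in those of Gata6+Itga6- cells, and CD34+ arrays overlapped those of each other population. It was chosen after its values were seen. Genes of red cells and megakaryocytes (8 measured) and of mast cells (7 measured) were all under the silent level in every population. Of the latter, Kit was at 2.38 ± 0.25 in Gata6+Itga6- and 1.74 to 1.83 elsewhere, under the silent level throughout. Of the 7 mast cell genes, 1 was called higher in Gata6+Itga6- than in CD34+ cells and 1 higher than in remaining basal cells. Of all genes 3.22% and 2.96% were called higher in these pairs.

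The heart and endoderm members other than Gata6 were at a like level. Gata4 had means of 2.21 to 2.34, with 3 of 12 arrays over the silent level: CD34+ replicate 1 at 2.53, remaining basal replicate 3 at 2.64 and Gata6+Itga6+ replicate 1 at 2.51. These belonged to 3 different populations. Gata5 had means of 1.80 to 2.03. The smallest adjusted p of these 4 members in any of the 6 pairs was 0.329, for Gata5 in CD34+ against remaining basal cells, with a difference of 0.23. At Gata5 probe set 5040063 the replicates of Gata6+Itga6- cells were at 3.81, 3.40 and 3.62, and those of CD34+ cells at 2.35, 2.88 and 1.79. Remaining basal replicates were at 2.41, 2.35 and 2.86, but Gata6+Itga6+ replicate 3 reached 3.60 beside 2.34 and 1.80, and no pair passed the test there. No probe set of Gata1, Gata2, Gata4 or Gata5 was called in any pair by limma, and at most 4 of their 39 had an unadjusted p under 0.05 in a pair. Of all probe sets, 1.86% and 0.528% were called for Gata6+Itga6+ cells against CD34+ and remaining basal cells, 0.933%, 3.98% and 2.38% for Gata6+Itga6- cells against Gata6+Itga6+, CD34+ and remaining basal cells, and 2.50% for CD34+ against remaining basal cells. Of 14 measured heart and endoderm genes linked to GATA4 to GATA6, 1 was over the silent level and 0 were called in any pair by limma, with at most 2 at an unadjusted p under 0.05.

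Of the cofactors of the family, Tcf12, Lmo4 and Lmo1 had their highest means in CD34+ cells. Of 15 listed cofactors and partners, all measured, 13 were over the silent level in at least 1 population: 12 in Gata6+Itga6+, 11 in Gata6+Itga6-, 11 in CD34+ and 9 in remaining basal cells. Ldb1, the bridging factor of LMO complexes, had means from 6.004 to 6.62. The FOG genes were low, Zfpm1 at 2.30 to 2.54 and Zfpm2 at 1.57 to 1.61. Between CD34+ and remaining basal cells 3 of 15 were called, all higher in CD34+ cells, where 3.32% of all genes were called higher, with a median change of 0.28 over the list and 0.015 over all genes. The E-protein gene Tcf12 was at 7.40 ± 0.17 in CD34+ and 5.24 ± 0.61 in remaining basal cells (difference 2.17 ± 0.25 SE, adjusted p = 0.00055). Lmo4, a LIM-only adaptor, was higher by 1.25 (adjusted p = 0.0369), and the third was Runx1, at 3.66 ± 0.91 against 2.19 ± 0.24.

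Between Gata6+Itga6+ and CD34+ cells 2 of the 15 were called, both lower in the former as were 2.18% of all genes: Lmo4 by -1.35 ± 0.29 SE (adjusted p = 0.0274) and Tcf12 by -1.03 ± 0.25 SE (adjusted p = 0.0463). Gata6+Itga6- cells had less Lmo4 than CD34+ cells (-1.97 ± 0.29 SE, adjusted p = 0.00187) and at least 1.96-fold less Lmo1, which was under the silent level there (adjusted p = 0.0192), and 4.74% of all genes were called lower. In Gata6+Itga6- against remaining basal cells, Tcf12 was the 1 called, higher by 1.25 ± 0.25 SE (adjusted p = 0.016). Of all genes 2.96% were called higher in that pair. None of the 15 was called between both reporter-positive populations, nor between Gata6+Itga6+ and remaining basal cells, where 5 of them had an unadjusted p under 0.05 in limma each time.

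Of 9 measured other genes with a GATA-type zinc finger, 8 were over the silent level. Trps1, a repressor that binds GATA sites, was over it in CD34+ cells, at 3.03 ± 0.45, and under it elsewhere. It was at least 1.48-fold higher in CD34+ than in Gata6+Itga6+ (adjusted p = 0.0209) and remaining basal cells (adjusted p = 0.00959). Of all genes 2.18% and 3.32% were called higher in CD34+ cells in these pairs. Mta3, a subunit of a chromatin remodelling complex, was higher in reporter-positive cells without ITGA6 than in remaining basal cells by 1.04 ± 0.26 SE (adjusted p = 0.0499), as were 2.96% of all genes. No other of the 9 was called in any of the 6 pairs, though Gatad1 had means from 5.33 ± 0.82 in remaining basal to 6.52 ± 0.25 in Gata6+Itga6+ cells.

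Over the 12 arrays, the genes whose level followed Gata3 most closely among 8943 genes over the silent level in at least 1 population, predicted gene models left out, were Tnxb (Pearson r = 0.983), Ly6a (0.966), Htra1 (0.958), Slc6a4 (0.957), Satb1 (0.954) and Dnmt1 (0.953). These r values describe 4 groups of 3 arrays, so they mostly follow the population means. Ly6a, which encodes the surface antigen SCA1, was at 5.71 ± 0.62 in remaining basal cells, at 4.60 ± 0.11 in Gata6+Itga6+ cells, and at 1.94 ± 0.61 and 1.88 ± 0.54, under the silent level, in CD34+ and Gata6+Itga6- cells. The chromatin organiser Satb1 had the same order, at 5.51, 4.05, 2.88 and 2.22. The maintenance DNA methyltransferase gene Dnmt1 spanned less, from 5.95 in remaining basal to 4.67 in Gata6+Itga6- cells. The genes most opposite to Gata3 were Pdzrn3 (r = -0.909), Tpd52l1 (-0.906) and Dsp (-0.898), the last encoding the desmosome protein desmoplakin, at 8.81 in remaining basal cells and at 9.48 in Gata6+Itga6- cells.

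Gata6 was followed most closely by Crabp2 (r = 0.995), Nebl (0.984), Sprr1a (0.983), Psapl1 (0.981), Ano9 (0.978) and Cst6 (0.975). The sort itself bears on Gata6 and r mostly follows the population means. This ranking thus picks genes that differ between the reporter-positive and reporter-negative populations. Crabp2, a carrier of retinoic acid, was at 8.73 ± 0.22 in Gata6+Itga6- cells, at 6.33 ± 0.59 in Gata6+Itga6+ cells, and at 2.93 and 2.89 in CD34+ and remaining basal cells. The cornified envelope gene Sprr1a was at 2.62 in CD34+ and 3.39 in remaining basal cells, at 7.15 in Gata6+Itga6+ cells and at 9.78 in Gata6+Itga6- cells. Ccn1 (-0.973), Slc6a6 (-0.951) and Itga2 (-0.951), the integrin alpha 2 gene, were the most opposite. Itga2 was at 4.83 in CD34+ and 4.12 in remaining basal cells, 2.67 in Gata6+Itga6+ cells, and 1.57, under the silent level, in Gata6+Itga6- cells.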

How the data were processed

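The deposited values are intensities of 235932 probe sets, made by the authors with RMA in Affymetrix Power Tools on build mm9, per the submitters' processing notes, which give no versions. Their scale is not stated and was read as linear from the values, with array maxima of 2172 to 2953, and every log2 level and fold rests on this reading. RMA evens out shifts shared by most genes, but upper quartiles of the arrays still ran from 12.1 to 17.6. Per the labels, RNA of sorted cells was amplified before hybridization. Probe sets were named from the platform annotation (221205 with 1 symbol, 1684 with several, 13043 with none) and symbols brought up to date with RefSeq GRCm38.p6 (2489 updated, 42 kept as given). Only those with 1 symbol were used, as log2(value + 1), which makes folds of dim genes smaller. Coordinates of probe sets are not used here.

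All 12 arrays were fitted with limma 3.58.1 in R 4.3.3, with 1 mean per population (residual degrees of freedom 8, prior 2.12). P-values were adjusted over all genes (Benjamini-Hochberg) and a gene was called under 0.05. A fold is 2 raised to the log2 difference. Where the lower mean was silent, "at least" marks a fold against the silent level. The fit was tested on simulated data. Members and lists were chosen with earlier results of these data known. Named were all members, the probe sets of Gata3 and Gata6 with the largest and smallest difference, the 6 genes most like and 3 most opposite each non-silent member, and up to 3 called genes of each list; other single genes, Gata6 probe sets 5282182 and 5417610, and Gata5 probe set 5040063 were chosen after their values were seen. Alternatives are given at the end.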

Additional observations from a re-analysis of the deposited data

How the results depend on the processing

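Gata3 was called lower in Gata6+Itga6- cells than in remaining basal ones in all 22 alternatives (differences -2.57 to -2.05), and lower in CD34+ than in remaining basal cells in all 22 (-2.17 to -1.61). The number of members called between Gata6+Itga6+ and CD34+ cells, 2, became 1 with the letter in the array name as a block, with the brightest probe set of each gene, and with only these 2 populations fitted, and ran from 1 to 2 with single arrays left out. Between Gata6+Itga6+ and remaining basal cells it was 2 after quantile normalization and 0 with only these populations fitted, where Gata6 had an adjusted p of 0.0619. Between the reporter-positive populations it was 0 with the brightest probe sets. The 0.11 by which Gata6 was higher in CD34+ than in remaining basal cells turned to -0.038 with the mean of probe sets, -0.18 with the brightest, -0.0061 with array brightness as a covariate, -0.049 without CD34+ replicate 2 and -0.060 without remaining basal replicate 2, and ran from -0.060 to 0.28 over all single arrays left out, the highest without remaining basal replicate 3. With single arrays left out, the called probe sets of the family ran from 4 to 9 for Gata6+Itga6+ against CD34+, 3 to 5 against remaining basal, 1 to 4 for Gata6+Itga6- against Gata6+Itga6+, 9 to 11 against CD34+, 16 to 21 against remaining basal, and 3 to 10 for CD34+ against remaining basal cells. With all arrays, the probe sets called for Gata6+Itga6+ cells against CD34+ and remaining basal cells, 7 and 4, were all of Gata6. So were the 9 called for Gata6+Itga6- against CD34+ cells. The sort itself bears on these counts, which thus only check the labels. Of all probe sets, 1.86%, 0.528% and 3.98% were called in these pairs. The causes of the changes between settings were not tested. No pairing of samples by replicate number was detected (correlations of deviations -0.11 to 0.198, 2 of 18 over 0.1). With 3 arrays a population, these correlations cannot exclude it. With the replicate number as a block, the members called remained 2, 1, 2, 1, 2 and 1 of 6 in the 6 pairs.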

Other observations

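A list of 10 genes set up for the inner root sheath, the hair follicle layer that needs Gata3 to form, was read next. Of 9 measured, 3 were over the silent level in any population, Cux1, Agpat5 and Tchh. The keratin genes Krt71 (2.15 to 2.25) and Krt27 (1.65 to 1.97) were under it in all. Tchh, the gene of the inner root sheath protein trichohyalin, was at 3.25 ± 0.11 in Gata6+Itga6- and 2.70 ± 0.55 in CD34+ cells and under the silent level in the others. The transcription factor gene Cux1 was at 4.37 ± 0.70 in remaining basal cells, 3.96 ± 0.43 in Gata6+Itga6+ cells, 3.69 ± 0.37 in Gata6+Itga6- cells and under the silent level, at 2.16 ± 0.18, in CD34+ cells. CD34+ cells were thus at least 3.75-fold lower than remaining basal cells (limma adjusted p = 0.00354). Agpat5 was higher in Gata6+Itga6- than in CD34+ cells by 1.14 (adjusted p = 0.0377). The means of Agpat5 were over the silent level in all populations, and it is not taken as a marker of this layer.

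A list of 7 upper hair follicle genes was also read. The genes over the silent level numbered 7 for Gata6+Itga6+, 6 for Gata6+Itga6-, 5 for CD34+ and 5 for remaining basal cells. Of 7 listed genes, 6 were called higher in Gata6+Itga6+ cells than in remaining basal ones, as were 1.07% of all genes, and 5 higher than in CD34+ cells, as were 2.40%. Between the reporter-positive populations, 4 of the 7 were called higher without ITGA6 and 1 lower, as were 1.17% and 2.01% of all genes. The keratin gene Krt79 was 3.06-fold higher without ITGA6 than with it (log2 difference 1.61 ± 0.21 SE, adjusted p = 0.00347), the direction of Gata6 and the opposite of Gata3. Higher levels were not limited to the upper follicle list. Of 8 suprabasal keratinocyte genes, limma called 7 higher in Gata6+Itga6+ than in CD34+ cells and 4 higher than in remaining basal cells. Whether the upper follicle genes differ apart from such genes was not tested.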
